A study of Mus musculus with 8 samples.

Results

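The regions described here are the 1160 windows of 100 kb that held the most small DNA-protecting structures in condensing spermatids of wild-type (WT) mice. They were taken from 23198 fixed windows of chromosomes 1 to 19 with at least 100 nucleosome positions in WT spermatocytes. A window was kept when its number of WT small-structure positions reached the 95% quantile of these windows, which was 473.15. The windows were thus chosen by the WT small-structure list, so its values in them are given only as a description. They are called the richest windows, and the remaining 22038 are called the other windows.

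Sperm DNA is packed in steps. Nucleosomes, which carry the genome of spermatocytes in meiosis and of the haploid round spermatids, are taken apart in condensing spermatids, where transition proteins and then protamines take over. H2A.L.2 is a testis-specific variant of histone H2A that appears late in this course, together with the transition proteins. Micrococcal nuclease (MNase) cuts DNA that no protein protects, so that the protected fragments left over show where nucleosomes, or smaller particles, sat.

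The study set WT mice against mice lacking H2A.L.2 (H2A.L.2-less). Testis cell fractions were enriched for spermatocytes, round spermatids or condensing spermatids, and nucleosomal particles were separated on sucrose gradients. In condensing spermatids, fragments of about 130 to 170 bp (condensing nucleosomes) and of about 40 to 80 bp (small structures) were sequenced apart, and a size range is stated for these libraries alone. This gave 8 libraries with 1 in each group, and the number of animals behind a library is not stated.

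The values are the authors' lists of called positions on the mm9 build. Each position has a summit, the height of the coverage there (summit value) and a fuzziness score, which measures how widely the fragments scatter around it. The 8 lists held between 3748879 and 5322422 positions on chromosomes 1 to 19. Over the series, between 207000000 and 753000000 reads per sample came from 3 runs, but the depth of each list is unknown. The first percentile of the summit values, a measure of the calling floor, lay between 160 and 176 in the 6 nucleosome lists, at 272 for WT small structures and at 96 for those of H2A.L.2-less mice. With 1 library per group no difference between libraries could be tested, and a difference between genotypes cannot be told apart from a difference between libraries. Spreads over chromosomes describe variation along the genome, and 95% Wilson intervals cover counting error only.

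The richest windows formed the tail of a continuous range and no group of their own. Their number of WT small structures ran from 474 to 573 with a median of 498, against a median of 190 in the other windows. Within 5 summits of the threshold lay 127 windows on the inner and 118 on the outer side. The windows just inside, on chromosome 1 from 88300001 to 88400000 and from 92800001 to 92900000 and on chromosome 2 from 29500001 to 29600000, each held 474. Those just outside, on chromosome 2 from 168500001 to 168600000, chromosome 4 from 125600001 to 125700000 and chromosome 5 from 117900001 to 118000000, each held 473. None of the 819 windows left out for too few spermatocyte nucleosomes reached the threshold, the highest of them holding 358. Applied to small structures of H2A.L.2-less mice, the same rule gave 1160 windows as well, and 1061 of these (91.5%) were among the richest windows.

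The richest windows lay close together and favoured certain chromosomes. Chromosome 4 held 153 of them (10.7% of its windows), chromosome 11 held 115 (9.72%), chromosome 17 held 78 (8.72%) and chromosome 5 held 125 (8.66%). Chromosomes 3, 14 and 13 held 9, 8 and 10, or 0.611%, 0.696% and 0.866% of their windows. Mouse autosomes have their centromere at the low-coordinate end, and the 20% of each chromosome farthest from it held 465 of the richest windows (40.1%). There 9.57% of the windows belonged to them, against 3.87% in the 20% nearest to it. These shares are pooled, and chromosomes differed. The median place of the richest windows, as a fraction of chromosome length, ran from 0.10 (chromosome 19) to 0.88 (chromosome 8). Chromosomes 7 and 17 had 0.35 and 0.32, and chromosomes 4 and 11 had 0.88 and 0.83. Of the 1160 windows, 855 (73.7%) touched another one and 305 stood alone. Runs of at least 5 adjacent windows numbered 49. The longest runs lay on chromosome 8 from 121900001 to 125400000 with 35 windows, on chromosome 10 from 79000001 to 81100000 with 21 and on chromosome 5 from 35300001 to 36800000 with 15. Windows were not annotated with genes here.

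The highest 5 windows by number of WT small structures lay on chromosomes 10, 8, 4, 5 and 8. The first, on chromosome 10 from 80700001 to 80800000, held 573 WT and 543 H2A.L.2-less small structures. It held 261 WT and 149 H2A.L.2-less nucleosome summits in spermatocytes, 315 and 124 in round spermatids, and 306 and 251 among condensing nucleosomes. Small structures thus outnumbered nucleosomes of every stage in it, and the H2A.L.2-less round spermatids had the lowest number. On chromosome 8 from 74100001 to 74200000 the small-structure numbers were 561 and 516, and the round spermatid numbers 319 and 161. Chromosome 4 from 151800001 to 151900000 held 557 and 517 small structures and 343 and 189 round spermatid nucleosomes. On chromosome 5 from 115000001 to 115100000 the corresponding numbers were 554, 496, 345 and 150. The last, on chromosome 8 from 124800001 to 124900000, belonged to the longest run and had 554, 526, 412 and 227. In all 5, round spermatids of H2A.L.2-less mice had the lowest number among the 4 lists of the earlier stages.

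Windows rich in WT small structures were also rich in nucleosomes in 5 of the 6 nucleosome lists. A richest window held a median of 341 nucleosome summits in WT spermatocytes (from 196 to 489), against 211 in the other windows. In WT round spermatids the median was 360 (from 250 to 500) against 215. H2A.L.2-less spermatocytes had a median of 281 (from 113 to 503) against 195. The exception was the list of H2A.L.2-less round spermatids, with a median of 207 (from 110 to 513) against 197. In this list 689 of the richest windows (59.4%) lay above the median of all windows, whereas in WT round spermatids all 1160 did. Condensing nucleosomes had medians in WT of 250 (from 172 to 546, others 152) and 256 in H2A.L.2-less mice (from 182 to 543, others 155), so that both genotypes looked alike there. The H2A.L.2-less small structures, a list that the choice did not use, had a median of 445 (from 383 to 543) against 130, and all 1160 lay above the median of all windows.

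As means, the richest windows held 1.58 times as many summits as the other windows in WT spermatocytes and 1.64 times as many in WT round spermatids. In H2A.L.2-less mice the ratios were 1.39 and 1.05 at these stages. Among condensing nucleosomes they were 1.64 and 1.62. For H2A.L.2-less small structures the ratio was 2.83. In the WT list that chose the windows it was 2.37, and the order of these lists turned with equal numbers of positions, to 3.0 in H2A.L.2-less mice and 3.18 in WT. The ratio of 1.05 was close to 1 and fell below 1 in other settings, to 0.930 with summits at or above the list's median value and to 0.914 when windows were chosen by WT small structures per spermatocyte nucleosome. The richest windows took 7.82% of the WT round spermatid list (95% Wilson interval 7.80 to 7.84) and 5.14% of the H2A.L.2-less one (5.13 to 5.16), while they made up 5% of the windows.

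**Figure D1:**
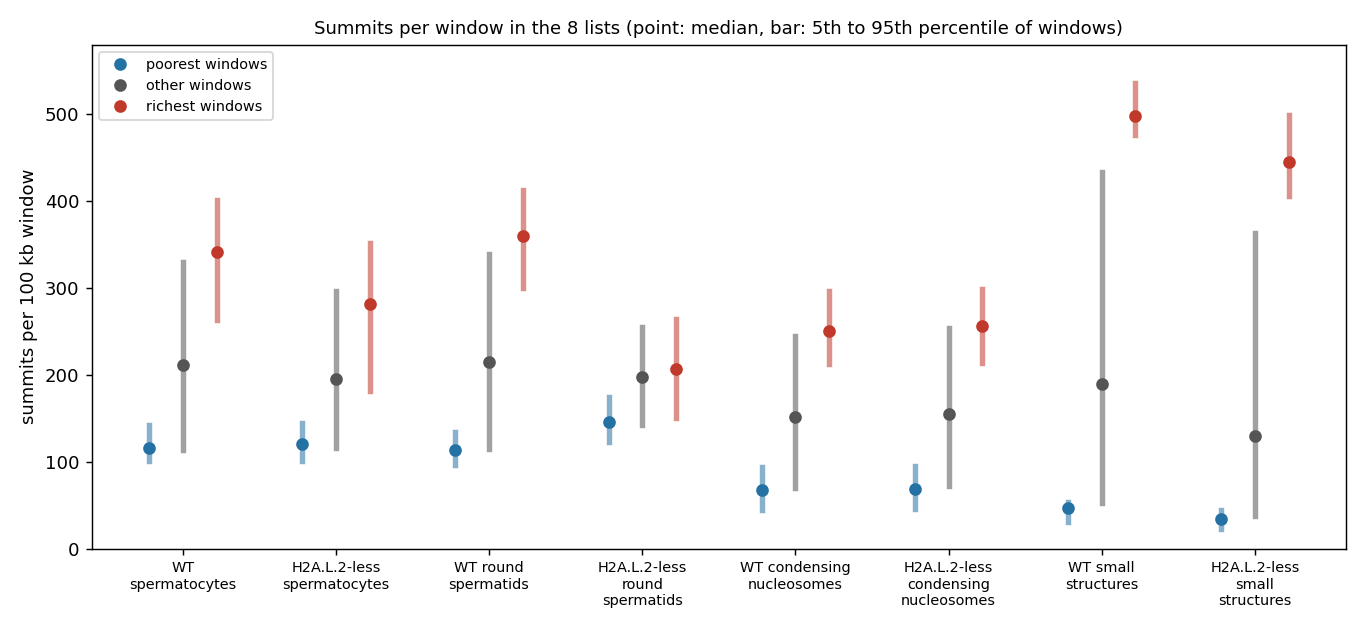
Number of summits per 100 kb window (vertical axis) in each of the 8 lists, for the 1160 richest windows (red), the 22038 other windows (grey) and the 1202 poorest windows, which held at most 54 WT small structures and are part of the others (blue); points are medians and bars run from the 5th to the 95th percentile of windows. The red point stands well above the grey one in 7 lists, and in H2A.L.2-less round spermatids the medians of 207 and 197 are close.

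The H2A.L.2-less round spermatid list was more even along the whole genome: the coefficient of variation of the number of summits over the other windows was 0.183, against 0.330 in WT round spermatids. Of the 5% of windows with the most summits in a list, those of WT round spermatids included 631 of the richest windows (54.4% of them, and 52.9% of the 1193 windows of that list). For WT spermatocytes the number was 550 (47.4%, and 46.3% of 1189), and for H2A.L.2-less spermatocytes 379 (32.7%, and 32.0% of 1184). For H2A.L.2-less round spermatids it was 96 (8.28%, and 8.07% of 1189). Condensing nucleosomes shared 483 in WT (41.6%, and 41.3% of 1170) and 445 in H2A.L.2-less mice (38.4%, and 37.9% of 1175).

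The comparison of genotypes asked whether the lack of H2A.L.2 went with a changed number of positions in these windows. In round spermatids the richest windows held 416213 summits in WT and 241856 in H2A.L.2-less mice. Relative to the other windows, which removes the difference in list length, this was a log2 ratio (H2A.L.2-less over WT) of -0.64. The ratio was below 0 on each of the 19 autosomes, from -0.79 to -0.50. Taken window by window against the median of all windows, the median of the richest windows was -0.69, with the 5th and 95th percentiles at -0.96 and -0.47. All but 2 of the 1160 windows were below the median of all windows. A window was counted as lower when its ratio was more than 1.5-fold below the median of all windows. This held for 887 of the richest windows (76.5%), against a background of 6.8% over all windows. At a 2-fold limit it held for 34 (2.93%, background 0.155%). None was more than 1.5-fold higher (background 2.5%).

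The difference was graded along the genome rather than set apart at the threshold. When all windows were split into 20 classes by their number of WT small structures, the median round spermatid ratio fell at every step. It was 0.47 in the lowest class, 0.04 in the tenth, -0.44 in the eighteenth, -0.55 in the nineteenth and -0.69 in the richest windows. The H2A.L.2-less numbers themselves did not follow this order. Their median was 146 in the lowest class, 207 in the tenth, 222 in the eighteenth, 217 in the nineteenth and 207 in the richest windows, while in WT round spermatids it rose from 113 over 217, 324 and 341 to 360. Condensing nucleosomes showed no such slope, as the plot of genotype ratios along the range shows.

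**Figure D2:**
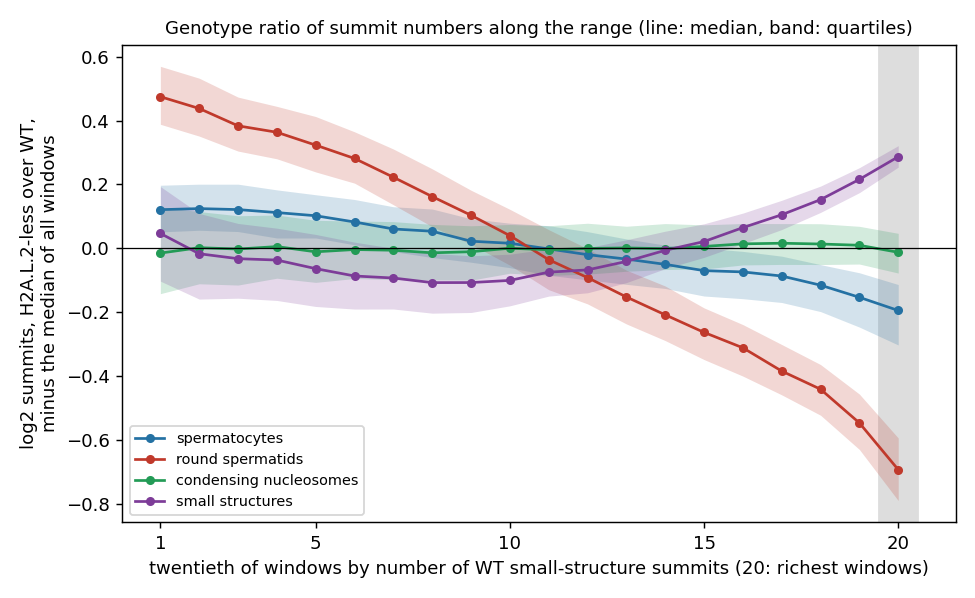
Log2 ratio of summit numbers per window, H2A.L.2-less over WT, minus its median over all windows (vertical axis), in 20 classes of windows ordered by their number of WT small structures (horizontal axis); lines are medians, bands run between the quartiles of windows and the grey bar marks the richest windows. The round spermatid line falls from 0.47 to -0.69, the spermatocyte line from 0.12 to -0.19, and the condensing nucleosome line ends at -0.01.

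Beside the richest windows the difference faded gradually, and it was still fading beyond 1 Mb. Windows next to a richest window, but not among them, had a median round spermatid ratio of -0.50 (940 windows). At a distance of 5 windows it was -0.31 and at 10 windows it was -0.14. From 11 to 20 windows away it was -0.05, and in the 16048 windows more than 20 windows away it was 0.14. WT round spermatid numbers ran in parallel, at 1.40 times the mean of all windows beside a richest window, 1.12 at 10 windows and 0.882 beyond 20. H2A.L.2-less round spermatid numbers were 1.07, 1.1 and 0.966 at the same distances.

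The lowest round spermatid ratios were gathered in a single run. All 5 windows with the lowest ratio lay on chromosome 10 between 79400001 and 80900000. The lowest, from 79800001 to 79900000, held 304 summits in WT and 111 in H2A.L.2-less round spermatids, a centred log2 ratio of -1.35. In the same window spermatocytes had 261 and 165 summits (-0.57), condensing nucleosomes 264 and 254 (-0.09) and small structures 545 and 501. In this window, chosen for its round spermatid ratio, the genotypes also stood apart in spermatocytes and were close among condensing nucleosomes. Next came the windows starting at 79400001 with 302 and 113 round spermatid summits (-1.31), at 80800001 with 285 and 110 (-1.27), at 80700001 with 315 and 124 (-1.24) and at 79700001 with 322 and 129 (-1.22). Over the whole run of 21 windows the median ratio was -1.07, and single windows ran from -1.35 to -0.64. The mean numbers per window were 270 and 186 in spermatocytes, 318 and 142 in round spermatids and 275 and 262 among condensing nucleosomes.

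Other long runs shared the direction. The 35 windows on chromosome 8 had a median ratio of -0.76, from -0.98 to -0.59, with mean round spermatid numbers of 371 in WT against 204 in H2A.L.2-less mice. Their condensing nucleosome means were 240 and 237. The 15 windows on chromosome 5 had a median of -0.58, from -0.84 to -0.45, with means of 403 and 251. All windows of these runs were below 0.

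The 2 highest round spermatid ratios belonged to windows of another make-up. On chromosome 17 from 13500001 to 13600000 the ratio was 0.14, with 500 summits in WT and 513 in H2A.L.2-less round spermatids. Spermatocytes had 489 and 503 summits there, condensing nucleosomes 546 and 543, and small structures 501 and 462. Chromosome 1 from 90100001 to 90200000 had a ratio of 0.10, with 497 and 497 summits in round spermatids, 478 and 498 in spermatocytes, 532 and 539 among condensing nucleosomes and 507 and 494 small structures. These windows held about the same number of summits in all 8 lists, at the upper end of the range of each nucleosome list. The next 3, on chromosome 6 from 114500001 to 114600000, chromosome 9 from 3000001 to 3100000 and chromosome 7 from 152200001 to 152300000, had ratios of -0.21, -0.22 and -0.26. They did not share this make-up, as their numbers over the 8 lists ran from 292 to 505, from 352 to 504 and from 273 to 479.

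In spermatocytes the richest windows were also poorer in summits in H2A.L.2-less mice, though less so. They held 392222 spermatocyte summits in WT against 319882 in H2A.L.2-less mice, a log2 ratio of -0.18 relative to the other windows. It was below 0 on 19 of 19 autosomes, from -0.27 to -0.10. The 5th and 95th percentiles of the windows were -0.49 and -0.03. Of the richest windows 25 (2.16%) were more than 1.5-fold lower, against a background of 0.151%. Across the 1160 windows the spermatocyte and round spermatid ratios went together, with Pearson's r of 0.63 and Spearman's rho of 0.62, and over all 23198 windows r was 0.71 and rho 0.72. Many of the windows are neighbours and not independent, so r is a description.

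Condensing nucleosomes showed little difference between genotypes in the richest windows, with 292793 summits in WT and 297451 in H2A.L.2-less mice. The log2 ratio relative to the other windows was -0.02, below 0 on 16 autosomes and above 0 on 3, from -0.06 to 0.06. No richest window was more than 1.5-fold higher (background 0.125%) or lower (background 0.056%). For small structures the numbers were 581192 (WT) and 520164 (H2A.L.2-less), a log2 ratio of 0.26 relative to the other windows, which turned to -0.08 when the lists were cut to equal numbers of positions. This contrast uses the list that chose the windows, so nothing is read from it. None was more than 1.5-fold higher there (background 0.00862%).

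Between stages the genotypes differed in the richest windows. From spermatocytes to round spermatids, the log2 ratio of summit numbers relative to the other windows was 0.05 in WT, above 0 on 18 of 19 autosomes, and -0.40 in H2A.L.2-less mice, below 0 on all 19. None of the richest windows was more than 1.5-fold higher in WT (background 0.0776%), and 109 (9.40%) were more than 1.5-fold lower in H2A.L.2-less mice (background 0.586%). From round spermatids to condensing nucleosomes, the ratio was -0.00 in WT, with 11 autosomes above and 8 below 0, and 0.62 in H2A.L.2-less mice, above 0 on all 19. More than 1.5-fold higher were 3 of the richest windows in WT (0.259%, background 2.34%) and 691 in H2A.L.2-less mice (59.6%, background 6.84%). The H2A.L.2-less numbers thus dipped at the round spermatid stage and were back beside those of WT among condensing nucleosomes. Both steps share the round spermatid libraries, so they are not separate observations. The pattern was not particular to the richest windows. Windows just under the threshold, from the 90% to the 95% quantile, had -0.32 and 0.47 in H2A.L.2-less mice. In the poorest windows, with at most 54 WT small structures, the order was the reverse, at 0.29 and -0.76. WT had -0.09 and -0.23 there.

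Summit values were compared within a list, since they have no common scale. In 3 of the nucleosome lists the median was the same in the richest and the other windows, at 232 and 224 in spermatocytes of WT and H2A.L.2-less mice, and at 240 in WT round spermatids. In H2A.L.2-less round spermatids it was 200 against 208. Condensing nucleosomes were slightly higher in the richest windows, with 204 against 200 in WT and 200 against 192 in H2A.L.2-less mice. Small structures were not only more frequent in these windows but also higher, with medians of 224 against 152 in H2A.L.2-less mice. In the WT list that chose the windows they were 740 and 472. Of the H2A.L.2-less small structures in the richest windows, 25.3% belonged to the highest 10% of their list, against 7.97% elsewhere. The order was the reverse in 3 nucleosome lists, with 7.23% against 10.7% in H2A.L.2-less round spermatids, 9.09% against 10.54% in WT round spermatids and 8.5% against 10.3% in H2A.L.2-less spermatocytes.

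Positions in the richest windows were fuzzier than elsewhere in all 8 lists. The median fuzziness score was 54.6 in the richest and 53.3 in the other windows of WT spermatocytes, a difference of 1.31 ± 0.171 (SD over 19 autosomes). In WT round spermatids the difference was 1.38 ± 0.204 and in H2A.L.2-less spermatocytes 0.971 ± 0.165. H2A.L.2-less round spermatids again stood lower, with 53.1 against 52.7, a difference of 0.383 ± 0.156. Differences for condensing nucleosomes were 0.449 ± 0.196 (WT) and 0.495 ± 0.190 (H2A.L.2-less). Small structures had the largest of the 8 differences, 3.82 ± 0.431 in H2A.L.2-less mice and 3.11 ± 0.314 in the WT list that chose the windows. The difference was above 0 on 19 of 19 autosomes in each list. Windows just under the threshold were nearly as fuzzy in the nucleosome lists. Their differences were 1.12 in WT spermatocytes, 1.14 in WT round spermatids and 0.404 in H2A.L.2-less round spermatids. For small structures they were 2.63 in H2A.L.2-less mice and 2.18 in WT.

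Isolated summits, with no neighbour within 200 bp on either side, were also compared, a measure added after the data were seen. They made up 26.8% of the summits of WT round spermatids in the richest windows and 49.4% of those of H2A.L.2-less round spermatids. Among isolated summits the WT and H2A.L.2-less differences were 1.61 and 1.22 for spermatocytes, 1.83 and 0.672 for round spermatids, 0.385 and 0.434 for condensing nucleosomes and 3.21 and 3.35 for small structures. The richest windows were fuzzier in this comparison too, in each of the 8 lists.

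Neighbouring summits stood closer together in the richest windows, and long empty stretches were fewer. The median distance of neighbours up to 1 kb apart was 210 bp against 250 bp elsewhere in WT spermatocytes, and 210 against 240 bp in WT round spermatids. In H2A.L.2-less mice it was 230 against 260 bp and 280 against 290 bp. Gaps of over 1 kb took up 6.36% of a richest window in WT round spermatids, against 34.1% of another window. In H2A.L.2-less round spermatids these shares were 32.1% and 35.6%, so that the richest windows had hardly fewer gaps than the rest. In number, such gaps were 4.76 per richest window in WT and 20.7 in H2A.L.2-less round spermatids. Spermatocytes lay between, with 8.59% of a richest window in long gaps in WT and 19.3% in H2A.L.2-less mice, against 34.3% and 38.0% elsewhere. For condensing nucleosomes the shares were 16.9% and 16.4%, against 49.4% and 48.7%. H2A.L.2-less small structures left 2.45% of a richest window in such gaps and 55.0% of another one.

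The most frequent distance of neighbours told the lists apart further. It was 180 bp in the richest and in the other windows of spermatocytes of both genotypes and of WT round spermatids. H2A.L.2-less round spermatids had 190 bp in the richest windows and 180 bp elsewhere, a step of the 10 bp grid on which most summits lie. In condensing nucleosomes of both genotypes it was 180 bp in the richest windows but 130 bp elsewhere. Distances of 160 to 220 bp made up 20.9% of those between condensing nucleosomes in the richest windows of either genotype, against 17.9% elsewhere in WT and 18.3% in H2A.L.2-less mice. Just under the threshold their share was close to that of the richest windows, at 20.2% (WT) and 20.3% (H2A.L.2-less). Small structures were most often 140 bp apart in the richest and in the other windows. The smallest gap between summits of any list was 100 bp, at a called width of 140 bp, so the calling bounds the short distances.

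Nucleosome arrays of the earlier stages were about as regular in the richest windows as elsewhere. Regularity was the height of the second peak of the distance curve of all summit pairs over the trough before it. In WT spermatocytes it was 1.71 in the richest windows, with an SD of 0.0786 over the 14 autosomes that had at least 30 of them, and 1.69 in the other windows. In WT round spermatids it was 1.9 (SD 0.0442) against 1.82, more than the spread over autosomes. Windows just under the threshold had 1.88 (SD 0.0575), so this was not particular to the richest windows. H2A.L.2-less spermatocytes had 1.96 (SD 0.0857) against 1.89, and 1.97 just under the threshold. H2A.L.2-less round spermatids had 2.16 (SD 0.156) against 2.17, a difference within the spread that changed sign in other settings. Repeat lengths were 187 or 190 bp in both sets of windows in these 4 lists, and the second peak stood at 370 bp.

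At the condensing stage the ratio was close to 1 in both sets of windows. It was 1.05 (SD 0.0266) against 1.02 in WT and 1.03 (SD 0.0289) against 1.01 in H2A.L.2-less mice, the latter a difference within the spread. In the richest windows the highest points lay at 330 bp in WT, the edge of the range searched, and at 440 bp in H2A.L.2-less mice, so no repeat was read. WT small structures, in the list that chose the windows, had 1.07 (SD 0.0155) against 1.01, and H2A.L.2-less small structures 1.02 against 1.0. The ranges searched for peak and trough share the bin at 330 bp, so the ratio cannot fall below 1. The value of 1.0 is this floor and not a measured peak. So near the floor the ratio also depended on how many windows were pooled. For H2A.L.2-less small structures the lowest single autosome had 1.019, above the 1.016 of all richest windows together. The SD over autosomes does not cover this, so these small differences cannot be judged by it.

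**Figure D3:**
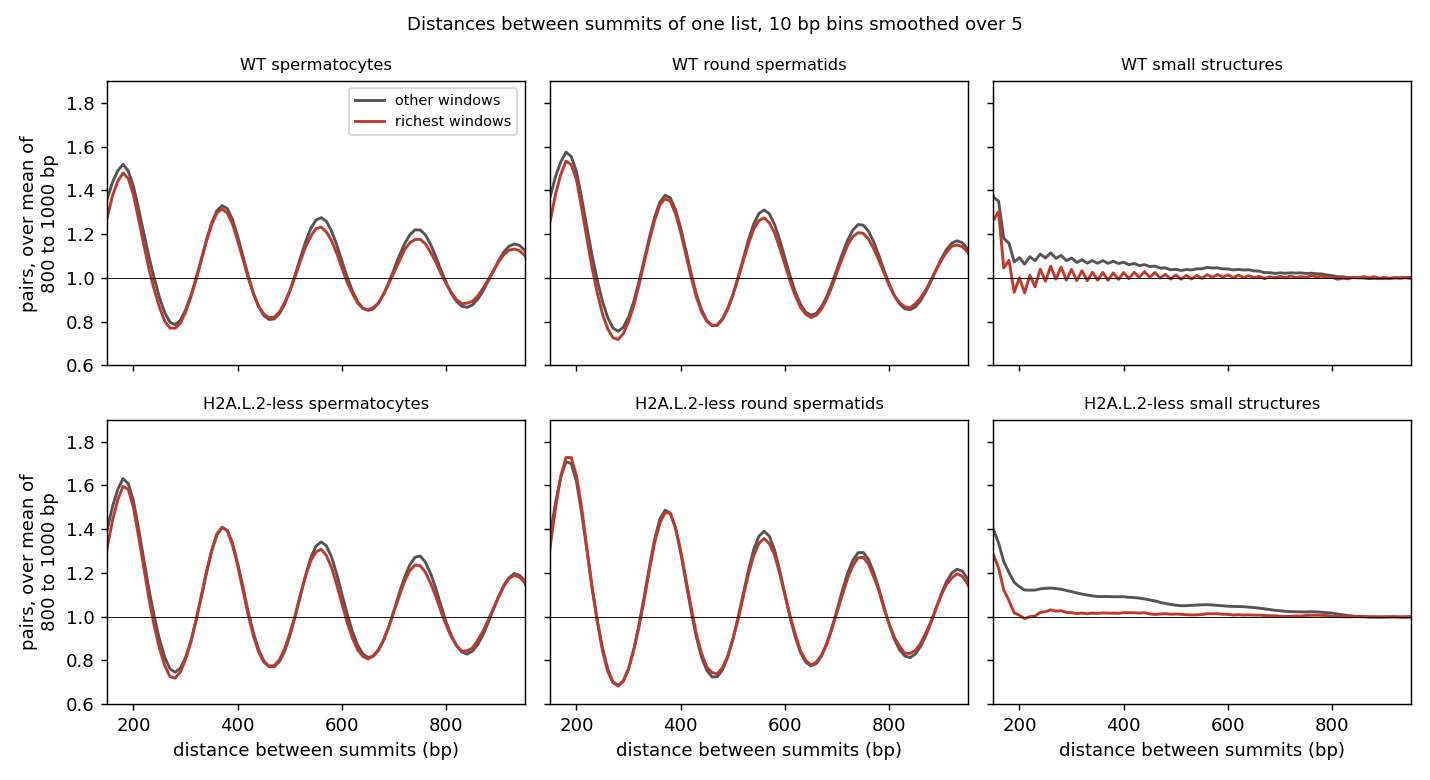
Number of summit pairs at each distance (horizontal axis, bp) over the mean number from 800 to 1000 bp (vertical axis), within the richest windows (red) and the other windows (grey), for the WT lists (top) and the H2A.L.2-less lists (bottom) of spermatocytes, round spermatids and small structures. The nucleosome curves of both sets nearly coincide, with the second peak at 370 bp, and the small-structure curves are flat beyond the shortest distances.

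Matching of summits between lists asked whether the same places were occupied. Summits at most 40 bp from a summit of the other list counted as matched, and the share found after moving the other list by 5 kb served as the background, which rises with the density of a list. In the richest windows 35.1% of the summits of WT round spermatids had a match in H2A.L.2-less ones (95% Wilson interval 34.9 to 35.2, background 18.8%), against 44.2% elsewhere (background 18.5%). The excess was 16.2 points in the richest windows, from 14.7 to 17.5 over autosomes, and 25.7 points elsewhere. In spermatocytes 47.3% were matched in the richest windows (background 25.3%) and 51.9% elsewhere (background 19.4%). Condensing nucleosomes gave 35.9% (background 23.2%) and 30.6% (background 16.3%). Here the excess was 12.7 and 14.2 points, or 16.5% and 17.0% of what the background left to be gained.

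Fewer round spermatid summits were matched in the richest windows among high and low summits alike. Among the highest 10% of summits in WT round spermatids, 60.2% had a counterpart in the richest windows and 67.8% elsewhere. Of the lowest 25%, 22.8% were matched in the richest windows, where the background was 18.2%, and 32.8% elsewhere, where it was 18.1%. The lowest WT round spermatid nucleosomes of the richest windows thus had few counterparts beyond the background in the H2A.L.2-less list.

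Small structures recurred at the same places in both genotypes. In the richest windows 70.4% of WT small structures had an H2A.L.2-less one within 40 bp (background 40.5%), against 56.5% elsewhere (background 20.3%). The excess was 29.9 points in the richest windows and 36.1 points elsewhere, but as a share of what the background left to be gained it was 50.3% and 45.3%, and within 20 bp the order of the points turned as well, so that the 2 sets of windows cannot be ranked. Of the highest 10% of WT small structures 82.4% were matched in the richest windows and 85.1% elsewhere. Of the lowest 25% in the richest windows 31.2% were matched, below the background of 38.4%, and elsewhere 29.4% against 15.5%. The WT list chose the windows, which this comparison shares.

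Between stages, 56.4% of WT spermatocyte summits in the richest windows were matched in WT round spermatids (background 32.5%), against 55.3% elsewhere (background 21.8%). In H2A.L.2-less mice the shares were 36.6% (background 19.3%) and 44.5% (background 18.5%). From round spermatids to condensing nucleosomes they were 29.4% in WT (background 22.7%) and 32.0% in H2A.L.2-less mice (background 23.1%) in the richest windows. Elsewhere they were 24.1% (background 15.4%) and 25.1% (background 15%). The excess in points was lower in the richest windows in all 4 of these comparisons. As a share of what the background left to be gained, the sets were close from round spermatids to condensing nucleosomes. It was 8.70% against 10.3% in WT and 11.6% against 11.9% in H2A.L.2-less mice.

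Small structures were then set against the places of earlier nucleosomes. The WT small-structure list chose the windows, so its values here are a description. Of the WT small structures there, 39.8% lay within 40 bp of a WT round spermatid nucleosome (background 32.3%), an excess of 7.53 points, against 42.8% elsewhere (background 23.7%), an excess of 19.1 points. On WT spermatocyte nucleosomes the excess was 7.22 points in the richest windows and 15.9 elsewhere. In H2A.L.2-less mice it was 2.40 and 6.12 points on round spermatid nucleosomes, and 4.21 and 11.1 on spermatocyte nucleosomes. On condensing nucleosomes of the same cells the sets were closer, with 5.66 and 6.60 points in WT and 3.98 and 5.37 in H2A.L.2-less mice. In the richest windows, the lowest 25% of WT small structures of the list lay on round spermatid nucleosomes in 30.3% of cases, under the background of 31.5%, while elsewhere 40.2% did (background 20.9%).

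**Figure D4:**
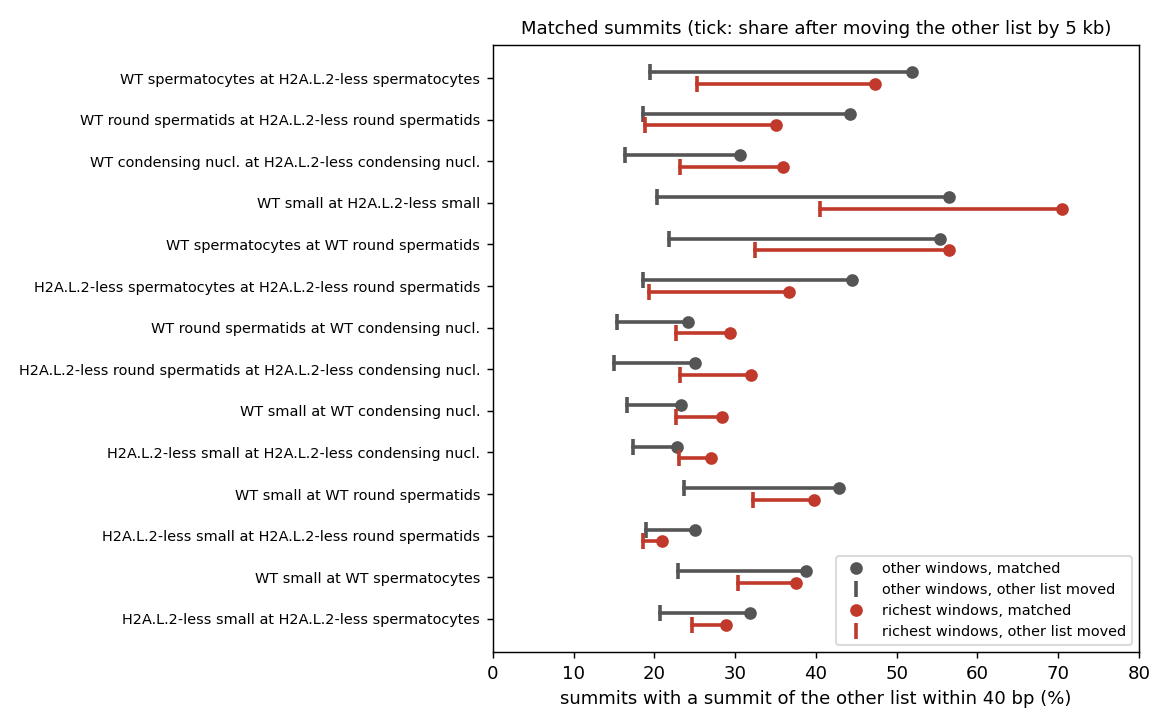
Share of summits of a list with a summit of another list within 40 bp (horizontal axis, %) for 14 pairs of lists, in the richest windows (red) and the other windows (grey); points are the measured shares and ticks the shares after moving the other list by 5 kb. The distance from tick to point is shorter in red than in grey in all 14 pairs, as for WT small structures at WT round spermatid nucleosomes with 7.53 against 19.1 points.

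The density of small structures was also followed around nucleosome summits. Relative to the density 800 to 1000 bp away, WT small structures in the richest windows stood at 1.38 at the summits of WT round spermatid nucleosomes, at 0.804 at a distance of 100 bp, and at 1.08 at 180 bp. Elsewhere the values were 1.94, 0.917 and 1.12. In H2A.L.2-less mice they were 1.26, 0.845 and 1.05 in the richest windows and 1.43, 0.919 and 1.06 elsewhere. Around WT condensing nucleosomes the sets differed little at the summit, with 1.48 in the richest windows and 1.52 elsewhere, and the dip at 100 bp was 0.680 and 0.734. In H2A.L.2-less mice the values at the summit were 1.38 and 1.42 and those at 100 bp 0.725 and 0.786. In WT, the sets of windows thus stood further apart around round spermatid than around condensing nucleosomes.

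**Figure D5:**
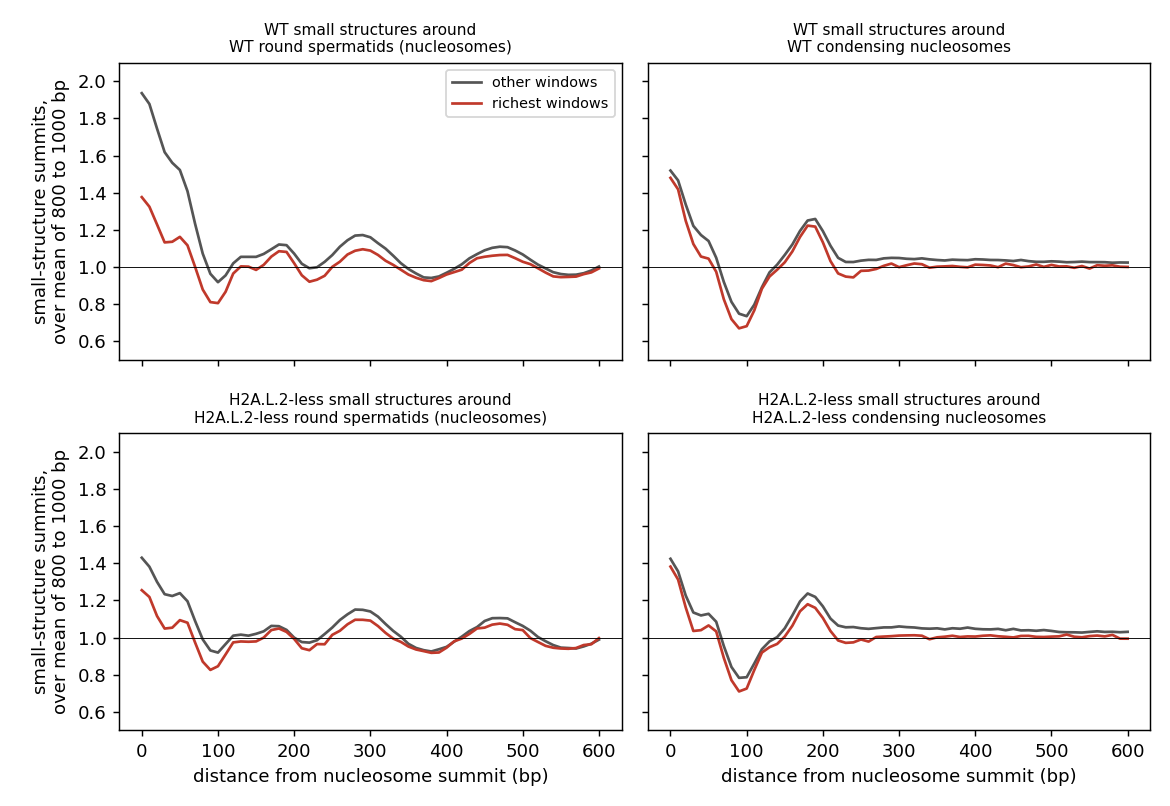
Number of small-structure summits at each distance from a nucleosome summit (horizontal axis, bp) over the mean from 800 to 1000 bp (vertical axis), around round spermatid nucleosomes (left) and condensing nucleosomes (right) in WT (top) and H2A.L.2-less mice (bottom), for the richest (red) and the other windows (grey). At round spermatid summits in WT the red curve starts at 1.38 and the grey curve at 1.94, while around condensing nucleosomes the curves start at 1.48 and 1.52.

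The richest windows also varied among themselves. When the richest windows were split into 4 nearly equal classes by their number of WT spermatocyte nucleosomes, the lowest class (median 286) had a median of 321 summits in WT and 172 in H2A.L.2-less round spermatids. The highest class (median 385) had 395 and 242. The round spermatid genotype ratio was -0.80 in the lowest and -0.60 in the highest class, and the spermatocyte ratio, whose denominator made the classes, was -0.34 and -0.12. WT condensing nucleosomes had medians of 251 and 257.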

How the data were processed

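MNase-protected DNA of 8 libraries was used, 1 per group, and titles gave the stage, genotype and fragment class of each. The submitters' processing notes name the build mm9, deepTools 2.2.4 and Bowtie2 2.2.9. The position caller's version, its thresholds and any read filters are not given in the sources used here. A deposited position comes, per the file headers, with its bounds, its summit, the coverage signal at the summit (summit value) and a fuzziness score. Summit values were whole multiples of 4, and no normalization to depth was seen in them.

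Summits were counted in 100 kb windows from coordinate 1. Ratios between lists were taken relative to the other windows or to the median of all windows. Distance curves counted summit pairs in 10 bp bins over their mean from 800 to 1000 bp, smoothed over 5 bins. For regularity, the maximum between 330 and 450 bp was divided by the minimum between 230 and 330 bp. Where this exceeded 1.1, a line through the first 4 peaks gave the repeat length. In all, 4 genotype pairs, 4 stage pairs and 14 pairs of lists for matching were compared. With 1 library per group no test was made.

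The windows and measures were chosen with earlier results of these data known. Named windows were the 5 with most WT small structures, the 5 with the lowest and the 5 with the highest round spermatid ratio, the 3 longest runs, and 3 windows on each side of the threshold. Alternatives were other window sizes, thresholds and minimum numbers, a choice by ratio, equal numbers of positions, positions at or above the median value, positions without the highest 0.1%, and other matching distances. Isolated summits, shares of the possible excess, matching by height, flanking windows, classes along the range, classes by spermatocyte number and long gaps were added after the data were seen. The code ran in Python 3.11.15 (numpy 2.4.6, scipy 1.17.1, pandas 2.3.3, matplotlib 3.10.9) and was tested on simulated data.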

Additional observations from a re-analysis of the deposited data

Results flagged for a closer look

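In the richest windows the genotypes moved apart between stages. From spermatocytes to round spermatids, the log2 ratio of summit numbers relative to the other windows was 0.0518 in WT, above 0 on 18 of 19 autosomes, and -0.401 in H2A.L.2-less mice, below 0 on 19 of 19. From round spermatids to condensing nucleosomes it was -0.00106 in WT but 0.619 in H2A.L.2-less mice. What drew attention is that the single library pairs of the 2 genotypes stood on opposite sides of 0 at both steps, though the WT value of the second step is close to 0. The poorest windows showed the reverse in H2A.L.2-less mice, at 0.287 and -0.756, so the pattern was not particular to the richest windows. The difference between genotypes was not tested, since each group had 1 library, and both steps share the round spermatid libraries.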

How the results depend on the processing

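Of 231 values of 32 results under other settings, 223 kept their direction and 8, of 4 results, did not. Counts of windows were classed only as unchanged or moved, so they could not change direction. The density of WT small structures was also included, though that list chose the windows. The number of 223 is therefore no measure of how firm the results are. Keeping the direction did not mean keeping the size. Of the 223 values, 109 were classed as unchanged and 114 as moved in size. The windows stayed the same where only positions were filtered. The mean number of summits in the richest over the other windows of WT round spermatids (1.64) was 1.65 in windows of 50 kb, 1.63 in windows of 200 kb, 1.65 from the 90% quantile, 1.67 without a minimum number, 1.37 with windows chosen by ratio, 1.67 with equal numbers of positions and 1.66 with positions at or above the median value. In H2A.L.2-less round spermatids (1.05) it was 1.06 in windows of 200 kb, 1.01 from the 99% quantile, 1.09 from the 90% quantile, 1.07 without a minimum, 0.914 by ratio, 1.01 with equal numbers and 0.930 at or above the median, the ratio and the median setting turning the direction.

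The spermatocyte genotype ratio (-0.18) was -0.22 from the 99% and -0.17 from the 90% quantile, -0.23 by ratio, -0.24 with equal numbers and -0.29 at or above the median. The round spermatid ratio (-0.64) was -0.64 in windows of 50 kb, -0.62 in windows of 200 kb, -0.70 from the 99% and -0.60 from the 90% quantile, -0.58 by ratio, -0.73 with equal numbers and -0.84 at or above the median. The small-structure ratio (0.26) turned to -0.0827 with equal numbers. With a 2-fold limit 34 windows were lower in H2A.L.2-less round spermatids instead of 887. The fuzziness difference of WT round spermatids (1.38) was 0.841 by ratio, 1.12 at or above the median and 1.83 for isolated summits. The regularity difference of WT round spermatids (0.07) was 0.14 at or above the median, and that of H2A.L.2-less round spermatids (-0.00712) turned to 0.0667 from the 99% quantile, 0.0207 with equal numbers and 0.0255 at or above the median.

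The richest minus the other windows gave -11.6 points for WT small structures at WT round spermatid summits. This was -8.75 with equal numbers, -6.65 within 20 bp, -16.0 within 73 bp, -11.3 after a move of 2 kb and -13.9 as a share of the possible excess. For WT small structures at H2A.L.2-less ones (-6.16) it turned to 1.16 within 20 bp and to 5.0 as a share of the possible excess. The choice by ratio shared 482 of the 1160 windows, and windows moved by 50 kb covered 70.9% of them. The cause of these shifts was not tested. Depth, unknown for each list, limits which low positions were called. No paired analysis was possible because each group had 1 library and the labels give no replicate numbers.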
